A study of Homo sapiens with 8 samples.

Results

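The 10 apolipoprotein genes described here encode the exchangeable and structural proteins of plasma lipoproteins, and they lie at 4 places in the human genome. APOA1, APOC3, APOA4 and APOA5 form a cluster on chromosome 11, and APOE, APOC1, APOC4 and APOC2 form another on chromosome 19. APOB on chromosome 2 and APOA2 on chromosome 1 stand alone. Genes were taken by name from GENCODE 44, and a peak of open chromatin was assigned to them when its summit lay in a gene body or within 20 kb of one. By this rule 37 of 60628 peaks were assigned, 11 to the chromosome 11 cluster, 13 to the chromosome 19 cluster, 6 to APOB and 7 to APOA2.

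Bulk ATAC-seq, in which the Tn5 transposase inserts sequencing adapters into open DNA, was carried out on HepG2, an established line of human liver cancer cells that keeps many features of hepatocytes. The series holds 8 libraries, 1 for each pairing of formaldehyde (FA) fixation at 0.1, 0.5, 1.0 or 5.0% with DMSO cryopreservation or flash freezing. The peaks analysed here came from the library fixed at 0.1% FA and cryopreserved, and the other libraries were not analysed here. With 1 library there was no replicate and no test between conditions, so all values below describe that library. In bulk data a larger share of open cells and more open DNA copies per cell cannot be told apart.

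Lipoproteins carry triglyceride and cholesterol through plasma. The liver builds very-low-density lipoprotein around APOB, and APOA1 and APOA2 are the main proteins of high-density lipoprotein. APOE is the ligand by which remnant particles are taken up by the liver. APOC2 is the cofactor of lipoprotein lipase, APOC3 inhibits clearance of triglyceride-rich particles, APOA5 promotes it and APOC1 inhibits cholesteryl ester transfer protein. APOA4 is made chiefly in the intestine, and APOC4 is a minor apolipoprotein. Both clusters are known for enhancers shared between neighbouring genes, among them the region upstream of APOC3 and the duplicated hepatic control regions downstream of APOE.

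The sequences that bear most on the chromosome 19 cluster came from 6 of its peaks, which form 3 pairs. Peaks were numbered along the forward strand within each locus. Peak 8 was a copy of peak 5, peak 9 of peak 6 and peak 10 of peak 7, each lying about 12 kb further downstream. The stretches are given 5′ to 3′ on the forward strand of GRCh38 (hg38), and capitals mark the bases at which the copies differ.
Chromosome 19 peak 8, chr19:44925541-44925641: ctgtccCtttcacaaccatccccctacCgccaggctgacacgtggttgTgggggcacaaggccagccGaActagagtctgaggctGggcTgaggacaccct
Chromosome 19 peak 5, chr19:44912986-44913086: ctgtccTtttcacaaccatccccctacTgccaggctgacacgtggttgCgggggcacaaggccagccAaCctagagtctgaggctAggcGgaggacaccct
Chromosome 19 peak 9, chr19:44927180-44927240: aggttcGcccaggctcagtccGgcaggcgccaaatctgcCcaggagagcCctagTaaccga
Chromosome 19 peak 6, chr19:44915096-44915156: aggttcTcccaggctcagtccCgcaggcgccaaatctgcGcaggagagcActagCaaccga
Chromosome 19 peak 10, chr19:44935984-44936084: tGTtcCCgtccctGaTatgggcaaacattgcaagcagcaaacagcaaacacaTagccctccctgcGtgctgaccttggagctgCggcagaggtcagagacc
Chromosome 19 peak 7, chr19:44924389-44924489: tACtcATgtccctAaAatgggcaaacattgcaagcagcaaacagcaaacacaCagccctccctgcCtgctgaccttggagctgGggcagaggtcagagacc

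In these stretches 94 of 101 bases were identical between peaks 8 and 5, 56 of 61 between peaks 9 and 6, and 92 of 101 between peaks 10 and 7. The stretches of peaks 9 and 6 were kept short to leave out untranslated exons, and that of peak 9 does not hold its summit. Peaks 8 and 5 both hold CACGTG, an E-box, at the same aligned place. Peaks 10 and 7 each hold TGTTTGC, read on the reverse strand as gcaaaca, 3 times, in a part where the copies carry no difference. These letters are a variant of the motif of FOXA factors and were searched for after the sequences had been seen.

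The 4 loci carried more peaks per length than the windows of other genes. The 37 peaks fell in 296 kb, or 1.25 per 10 kb (95% Poisson interval 0.880 to 1.72), against 0.297 per 10 kb in the windows of all other protein-coding genes. Of the 4 loci, only APOB had an interval (0.266 to 1.58) that includes 0.297. The pooled value gives long genes more weight. Gene by gene, the median of protein-coding genes was 0.414 per 10 kb, and the apolipoprotein genes lay between 0.726 and 2.06. By count, the median was 4 peaks within 20 kb (quartiles 2 and 6), against 5 to 9 for each apolipoprotein gene. Peaks covered 3.15% of the bases in the apolipoprotein windows and 0.630% in the others. The apolipoprotein windows were also denser in genes, with 0.642 protein-coding transcription start sites (TSS) per 10 kb against 0.122. Counting only peaks away from any TSS, that is with no part within 1000 bp of the canonical TSS of any gene, the density was 0.608 per 10 kb at the apolipoprotein loci and 0.199 elsewhere. Intervals here and below cover counting error only.

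The map of the loci shows how the peaks were placed. Of the 37 peaks, 11 lay at the TSS of an apolipoprotein gene, 8 at the TSS of another gene and 18 away from any TSS. Peaks away from a TSS therefore made up 48.6% of the assigned peaks and 71.7% of all other peaks. By the position of the summit, 17 were intergenic, 12 lay in an intron, 5 in a gene body outside the canonical transcript and 3 in an exon of a noncoding gene. Introns of any gene were counted, so promoter summits are among the 12. That of APOA1 fell in an intron of the antisense gene APOA1-AS, and that of APOC2 in one of the readthrough gene APOC4-APOC2. None of the summits lay in a coding exon of a canonical transcript.

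**Figure D1:**
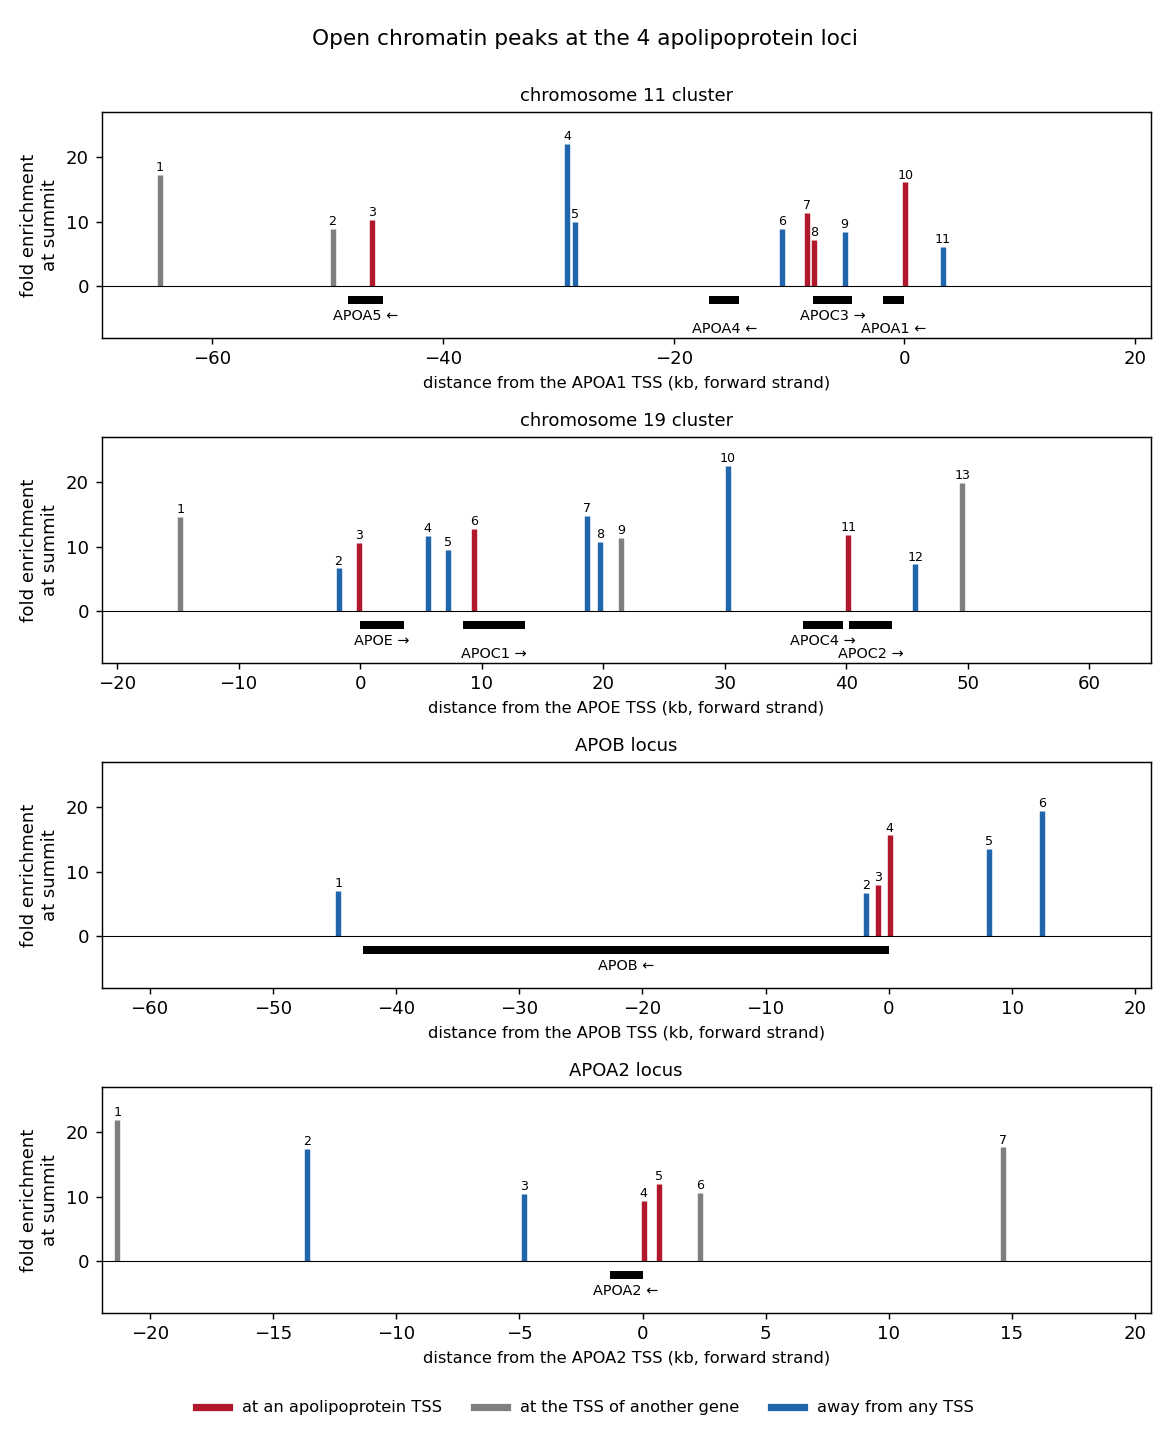
Fold enrichment at the summit of each of the 37 peaks (vertical axis) against distance in kb from the TSS of APOA1, APOE, APOB or APOA2 (horizontal axis, forward strand). Red lines are peaks at an apolipoprotein TSS, grey at the TSS of another gene and blue away from any TSS, black bars are the genes with arrows for their direction, and APOA4 and APOC4 are the 2 genes with no red line at their start.

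The density of peaks did not separate the 4 loci beyond counting error. It was 1.25 per 10 kb at the chromosome 11 cluster (interval 0.622 to 2.23), 1.55 at the chromosome 19 cluster (0.826 to 2.65), 0.726 at APOB (0.266 to 1.58) and 1.69 at APOA2 (0.681 to 3.49), and all of these intervals overlap. The window of APOB was long for 1 gene, at 82.6 kb, because the gene itself spans 42.6 kb. At APOA2, 3 of 7 peaks belonged to the TSS of neighbouring genes, against 3 of 13 at the chromosome 19 cluster, 2 of 11 at the chromosome 11 cluster and 0 of 6 at APOB.

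Each peak has a fold enrichment, the fragments piled up at its summit over the local background with 1 added to both. The median fold of the 37 peaks was 11.3 (range 6.06 to 22.5), against 10.7 for all other peaks. The fragments and the background behind each fold were solved from the deposited fold and p-value. The median was 37 fragments at the apolipoprotein summits (range 16 to 90) and 17 at the other summits. The local background of the caller had a median of 2.08 fragments at the apolipoprotein peaks and 0.580 at the others. Thus 34 of the 37 peaks lay above the median of the other peaks in fragments and 35 lay above it in background, but only 20 lay above it in fold. A caller run with no control library takes its background from the reads around a peak. Whether neighbouring peaks raised the background at these loci was not tested.

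The difference in fragments was plain at peaks away from a TSS. The 18 apolipoprotein peaks away from a TSS had a median of 34.5 fragments (range 16 to 64), against 14 for such peaks elsewhere, while their median folds were 10.2 and 9.80. Peaks away from a TSS had a median of 14 fragments on chromosomes 1 and 11, 15 on chromosome 2 and 16 on chromosome 19. The 11 peaks at an apolipoprotein TSS had a median fold of 11.3 and 42 fragments, and the TSS peaks of all other genes, noncoding ones included, had a median fold of 14.5 and 33 fragments. Against protein-coding genes alone, the TSS peaks of the apolipoprotein genes did not stand higher in fragments, as given below by gene.

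**Figure D2:**
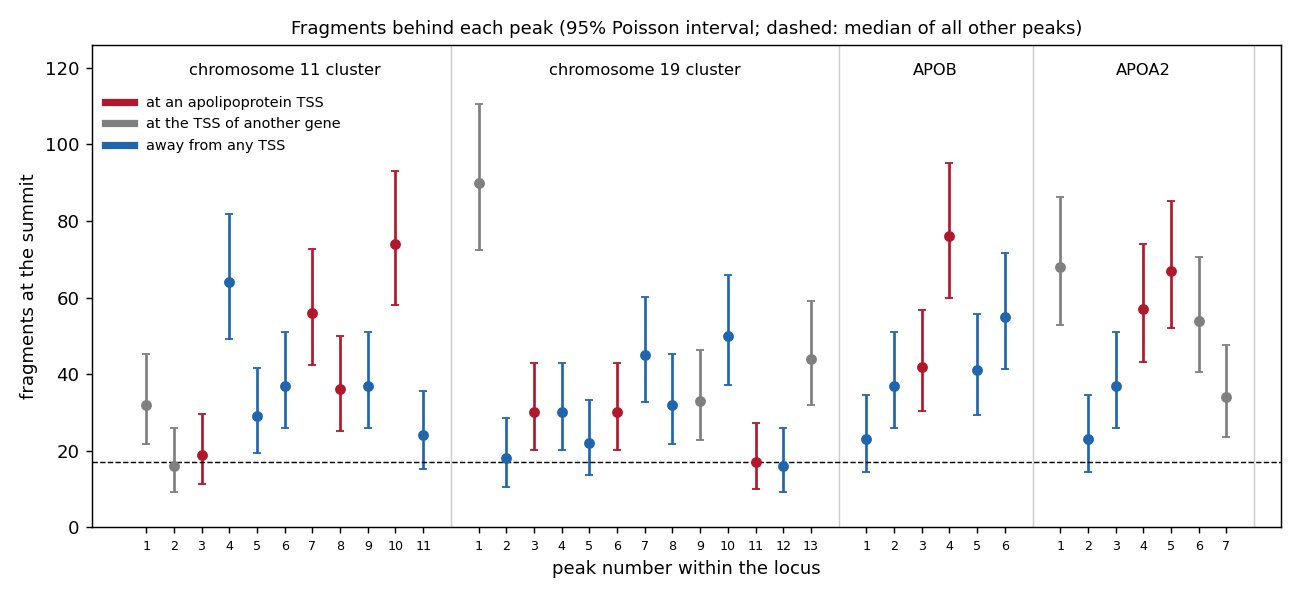
Fragments at the summit (vertical axis, count with 95% Poisson interval) of the 37 peaks, numbered along the forward strand within each locus (horizontal axis) and coloured by position. The dashed line is the median of 17 fragments of all other peaks, and 34 of the 37 points lie above it.

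A peak at the TSS was found for 8 of the 10 apolipoprotein genes, against 61.5% of the 20033 genes that encode a protein. The genes without one were APOA4 and APOC4. Any peak within 20 kb was found for 10 of 10 apolipoprotein genes and for 88.3% of protein-coding genes. Peaks were commoner at GC-rich starts, so genes were also split into 5 classes of about equal size by the GC content of the 500 bp on each side of the start. In the class of 51.8 to 58.7% GC, 3 of 4 apolipoprotein genes (APOC1, APOC2 and APOA2, but not APOC4) had a TSS peak, against 60.5% of all genes in it. In the class of 58.8 to 63.7% GC, 4 of 5 did (APOA1, APOC3, APOA5 and APOE, but not APOA4), against 70.8%. APOB, in the class of 63.8 to 69.0% GC, had one, against 77% of its class. With 10 genes, nothing is read from these differences.

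The apolipoprotein starts were of ordinary GC content but poor in CpG. Their median GC content was 59.9%, against 61.3% for all protein-coding genes. The ratio of observed to expected CpG had a median of 0.266 at the apolipoprotein starts, between 0.0439 at APOA2 and 0.527 at APOB, against 0.725. The letters TATAAA stood within 50 bp upstream of the TSS at APOC3, APOC2 and APOB, 3 of 10 genes, against 4.20% of protein-coding genes.

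The heights of the TSS peaks differed between the genes. By fold, that of the highest peak of each gene, APOA1 (16.1) and APOB (15.6) came first, then APOC1 (12.8), APOA2 (11.99), APOC2 (11.8), APOC3 (11.3), APOE (10.6) and APOA5 (10.3). All 8 lay below the median fold of 17.9 over the 12313 genes of this kind that had one. By fragments at the same summits the order was APOB (76), APOA1 (74), APOA2 (67), APOC3 (56), APOE and APOC1 (30 each), APOA5 (19) and APOC2 (17). The Poisson intervals of the first 4 overlap, as do those of the last 4, and the lower bound of APOC3 (42.3) lies just under the upper bound of APOE and APOC1 (42.8). The median of the 8 genes was 43 fragments, close to the 44 of protein-coding genes, each taken at its TSS peak with the most fragments. The order by fold and the place within the genome thus differed from those by fragments.

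In the chromosome 11 cluster, APOA1 (chr11:116835751-116837622, reverse strand) had a single TSS peak, chr11:116837510-116838033, with its summit 51 bp upstream of the TSS. It held 74 fragments (58.1 to 92.9), the most of any peak in this cluster. APOC3 (chr11:116829706-116833072, forward strand), which is transcribed toward APOA1, had 2 TSS peaks and 2 others close by. The peak nearest its TSS, 111 bp upstream, had a fold of 7.14 and 36 fragments. The one 735 bp upstream was higher, with a fold of 11.3 and 56 fragments, and their intervals overlap (42.3 to 72.7 and 25.2 to 49.8). Further peaks lay 2909 bp upstream (fold 8.88, 37 fragments) and in an intron 2520 bp downstream (fold 8.43, 37 fragments). Among the 37 peaks, the background at these 4 peaks and at APOA1 was high, between 3.28 and 4.18 fragments.

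The rest of the chromosome 11 cluster was less evenly open. APOA4 (chr11:116820700-116823304), which lies between APOC3 and APOA5, had no peak within its body, and the nearest summit was 3694 bp upstream of its TSS, in the peak 2909 bp upstream of APOC3. APOA5 (chr11:116789367-116792420) had 1 peak in an intron 430 bp downstream of the TSS, with a fold of 10.3 and 19 fragments (11.4 to 29.7). Between APOA5 and APOA4 lay the highest peak of the cluster, peak 4 (chr11:116808257-116808632), intergenic, with a fold of 22.1 and 64 fragments (49.3 to 81.7), and peak 5 beside it, with a fold of 10.0 and 29 fragments. The remaining peaks were at the TSS of BUD13, which encodes a splicing factor, at that of ZPR1, which encodes a zinc finger protein, and 3341 bp upstream of APOA1 within the antisense gene APOA1-AS (fold 6.06, the lowest of the 37).

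Peak 4 is shown around its summit because it had the most fragments of any peak of the loci away from a TSS. Capitals mark TTATCT, which is AGATAA, the motif of GATA factors, on the reverse strand.
Chromosome 11 peak 4, chr11:116808325-116808425, forward strand: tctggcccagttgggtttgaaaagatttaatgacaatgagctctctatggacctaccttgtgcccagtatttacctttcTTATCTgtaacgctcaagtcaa
AGATAA stood within 50 bp of 1 of 37 apolipoprotein summits and of 4.57% of other summits.

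In the chromosome 19 cluster, APOE (chr19:44905791-44909393) had a TSS peak with its summit 78 bp upstream, a fold of 10.6 and 30 fragments (20.2 to 42.8). A lower peak lay 1776 bp upstream (fold 6.62, 18 fragments). APOC1 (chr19:44914247-44919349) had its peak in an intron 538 bp downstream of the TSS, with a fold of 12.8 and 30 fragments. APOC2 (chr19:44946035-44949565) had the TSS peak with the fewest fragments, 17 (9.90 to 27.2), 92 bp upstream. That peak stood on the lowest background of the cluster, 0.528 fragments, and so reached a fold of 11.8. APOC4 (chr19:44942237-44945496) had no peak at its TSS, and the nearest summit, 3722 bp downstream, was the one at the TSS of APOC2. The peak of APOC2 also lies in an intron of the readthrough gene APOC4-APOC2, so open chromatin there cannot be ascribed to 1 of these genes.

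A stretch that begins upstream of APOC1 and runs through it is repeated between APOC1 and APOC4, and so were the peaks in it and just beyond it. The cluster was aligned to itself on the forward strand, and only copies at spacings around that of the paired peaks were kept. It held 8 such segments of 672 to 1830 bp, which recur 11.6 to 12.6 kb downstream with 80.6 to 92.4% identity. Their spacing was thus partly set by the search. In the same order, peaks 5, 6 and 7 recurred as peaks 8, 9 and 10. Peaks 7 and 10 lay just beyond the last segment and its copy, and were paired by the alignment of the peaks themselves. Peak 6 is the one in an intron of APOC1, and its copy, peak 9, lies in an intron of the pseudogene APOC1P1 and within 1000 bp of its TSS. Over the whole aligned stretch, peaks 8 and 5 were 95.4% identical over 259 bp, peaks 9 and 6 were 85.8% identical over 148 bp and peaks 10 and 7 were 89.5% identical over 276 bp.

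Fragments at the copies did not differ beyond counting error. Peak 8 held 32 fragments and peak 5 held 22, a ratio of 1.45 (exact 95% interval 0.819 to 2.63). Peak 9 held 33 fragments and peak 6 held 30, a ratio of 1.10 (0.650 to 1.87). Peak 10 held 50 fragments and peak 7 held 45, a ratio of 1.11 (0.728 to 1.70). In each pair the interval includes 1, and it does not exclude a difference of up to 1.70-fold or more. By fold, peak 10 (22.5) stood above peak 7 (14.8), and the background was 1.26 fragments at peak 10 and 2.12 at peak 7. The higher fold of peak 10, the highest of the 37, therefore went with a lower background, while the fragments did not differ beyond counting error.

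Reads of copied DNA could in principle be placed on either copy. The 50 bp at each of the 37 summits occurred once in the genome sequence on either strand. Within the loci, exact 50-bp stretches shared with another place were found in 1 of the 37 peaks, peak 8, where 21 of 210 such stretches (10%) were shared. Reads with a low mapping quality had been removed by the authors, and how far this lowered the counts at the copies was not tested.

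**Figure D3:**
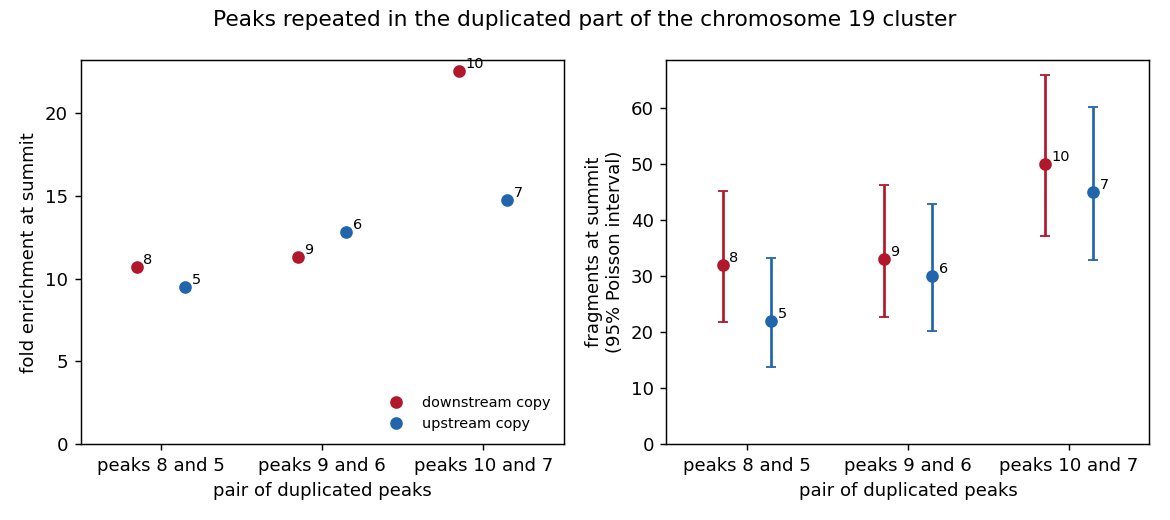
Fold enrichment (left) and fragments with 95% Poisson intervals (right) at the summits of the 3 pairs of duplicated peaks in the chromosome 19 cluster, with the downstream copy in red left of the upstream copy in blue. The intervals of fragments overlap in each pair, and the fold of peak 10 (22.5) lies above that of peak 7 (14.8).

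The other peaks of the chromosome 19 cluster were at neighbours or between genes. Peak 1, at the TSS of TOMM40, which encodes a channel of the mitochondrial outer membrane, had the most fragments of the 37 (90, interval 72.4 to 110.6) on the highest background, 5.22. Peak 13 was at the TSS of CLPTM1, with a fold of 19.9 and 44 fragments. Peak 4, downstream of APOE in an exon of the noncoding gene ENSG00000280087, had a fold of 11.7 and 30 fragments, and peak 5 lies in an exon of the same gene. Peak 12, 5431 bp downstream of the start of APOC2, had 16 fragments and a fold of 7.24.

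At APOB (chr2:21001429-21044073, reverse strand), the peaks stood at the 5′ end. The higher of its 2 TSS peaks, chr2:21043955-21044267, had its summit 88 bp upstream, a fold of 15.6 and 76 fragments (59.9 to 95.1). Introns close to the TSS held the other TSS peak, 877 bp downstream (fold 7.97, 42 fragments), and a peak 1857 bp downstream (fold 6.68, 37 fragments). Intergenic peaks lay 8099 bp (fold 13.5, 41 fragments) and 12472 bp upstream (fold 19.4, 55 fragments). Beyond the second intronic peak, the body of APOB held no peak, and the next lay past its 3′ end, 44.7 kb from the TSS, with a fold of 7.06 and 23 fragments. The intronic peaks had the lower folds and the higher backgrounds, 4.39 and 4.69 fragments, against 2.11 and 1.88 at the upstream peaks.

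At APOA2 (chr1:161222292-161223631, reverse strand), 2 peaks lay at the TSS. The nearer summit, 47 bp upstream, had a fold of 9.39 and 57 fragments (43.2 to 73.9), and the further, 675 bp upstream, a fold of 11.99 and 67 fragments (51.9 to 85.1). The background at the nearer peak, 5.18 fragments, was higher than at 99.3% of all peaks. Neighbouring genes supplied most of the rest. The peak at the TSS of TOMM40L had a fold of 10.6 and 54 fragments, and that at the TSS of NR1I3, the nuclear receptor CAR, had a fold of 17.7 and 34 fragments. A peak in an intron of FCER1G, away from any TSS, had a fold of 10.4 and 37 fragments.

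Summits of TSS peaks sat in the usual place for most of these genes. For 6 genes (APOA1, APOC3, APOE, APOC2, APOB and APOA2) the nearest summit was 47 to 111 bp upstream of the TSS, and among protein-coding genes with a summit within 1000 bp of theirs the median was 68 bp upstream, with quartiles of 120 and 28 bp upstream. APOA5 and APOC1 had theirs in an intron instead, 430 and 538 bp downstream. The stretches upstream of 3 of the TSS are shown because they hold the motifs found there. Capitals mark GC boxes (GGGCGG or its reverse) at APOE, a C/EBP motif (TTGCNNAA, here as its reverse) and TATAAA at APOB, and the reverse of the FOXA motif TGTTTAC at APOA2. Each is given along the direction of its gene, ending at or just before the first transcribed base.
APOE, chr19:44905666-44905790, forward strand: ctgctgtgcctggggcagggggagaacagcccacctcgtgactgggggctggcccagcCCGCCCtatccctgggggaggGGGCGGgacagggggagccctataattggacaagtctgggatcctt
APOB, chr2:21044074-21044203, reverse strand: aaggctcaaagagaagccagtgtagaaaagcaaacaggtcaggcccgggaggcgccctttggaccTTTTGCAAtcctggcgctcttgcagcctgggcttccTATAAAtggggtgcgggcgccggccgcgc
APOA2, chr1:161223632-161223758, reverse strand: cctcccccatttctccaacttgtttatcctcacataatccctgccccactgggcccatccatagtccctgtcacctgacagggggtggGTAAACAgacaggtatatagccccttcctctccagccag

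Motifs were searched on both strands within 50 bp of each summit, and 15 of the 37 held at least 1 of the 11. GC boxes were the most frequent, at 7 summits (18.9%) against 17.9% of other summits, and all 7 were TSS peaks. The E-box CACGTG, bound by USF and related factors, stood at 3 summits (8.11%) against 2.80%. The 3 summits were those of peaks 4, 5 and 8 of the chromosome 19 cluster, of which 8 and 5 are copies of each other. TTGCNNAA stood at 3 summits, against 6.32% of others, in the intron of APOC3, at the TSS of APOB and 8099 bp upstream of APOB.

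The other motif letters stood within 50 bp of few of these summits. TGTTTAC stood at 1 summit, the nearer TSS peak of APOA2, against 4.79% of other summits. TGANTCA (AP-1) stood at 1 against 5.58% and CCGGAAG (ETS) at 1 against 3.18%. Among other peaks away from a TSS these shares were 6.12, 6.91 and 1.15%, and 7.53% for GC boxes. Peaks away from a TSS made up 48.6% of the 37 and 71.7% of the others, so position enters these comparisons. CAAAGTCCA (HNF4) stood at 0 of 37 (upper limit 9.49%, exact 95% binomial) and at 1.41% of others, GTTAATNAT (HNF1) at 0 and 0.956%, AGGGGGCGC (CTCF) at 0 and 1.47%, and TCACCCCAC (SREBP) at 0 and 0.147%. With the variant TGTTTGC, which was chosen after the paired sequences had been seen, 4 of 37 summits held a match against 4.48% of others. They were chromosome 19 peaks 10 and 7, with 3 matches each, and the APOC3 intron peak and the higher APOB TSS peak, with 1 each. Among the 60437 other peaks, 2 held 3 or more matches. Exact letters miss degenerate sites, and a match is no evidence of binding.

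The genes that load, remodel and take up these lipoproteins were open to differing degrees. Each of the following counts stands against the background of 61.5% given above. Of the genes for assembly and secretion of lipoproteins, 10 of 10 had a TSS peak. The highest folds were at PDIA6 (27.01), CIDEB (24.5), KLHL12 (23.3) and SAR1B (23.2), the last encoding a GTPase of the coat of secretory vesicles. Of the lipases, transfer proteins and their regulators, 4 of 12 had one. Among them were LCAT (13.0), which esterifies cholesterol on high-density lipoprotein, LMF1 (12.4), which matures lipases, and ANGPTL8 (6.43).

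Receptors and exporters mostly had a TSS peak. Among lipoprotein receptors it was 11 of 12, with CUBN the exception, led by SORT1 (21.3), SCARB1 (18.9) and LSR (15.7). Among genes of cholesterol export it was 6 of 7, with ABCG1 the exception. Folds were highest for the lysosomal proteins NPC2 (23.9, a peak shared with ISCA2) and NPC1 (14.4), with ABCG5 and ABCG8, which share 1 peak, at 11.2. Among 14 other apolipoprotein genes it was 10, led by APOL2 (28.4), CLU (21.2), APOOL (18.2) and APOH (14.3). The 4 others were APOBR, APOL3, APOL4 and LPA.

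Of 22 regulators of apolipoprotein genes, 21 had a TSS peak. The highest folds were at FOXA3 (24.3, a peak shared with SYMPK), CREB3L3 (21.5), NR2F2 (18.9) and HNF4A (18.3, a peak shared with R3HDML-AS1). The exception was NR1H4, the bile acid receptor FXR, whose nearest summit lay 1505 bp downstream of its TSS. Of 12 hepatocyte markers, 10 had a TSS peak, with ALB and FGB the exceptions. Of markers of other cells, 2 of 8 for enterocytes, 2 of 7 for macrophages and blood, 0 of 6 for stellate cells and fibroblasts and 2 of 4 for astrocytes had one.

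**Figure D4:**
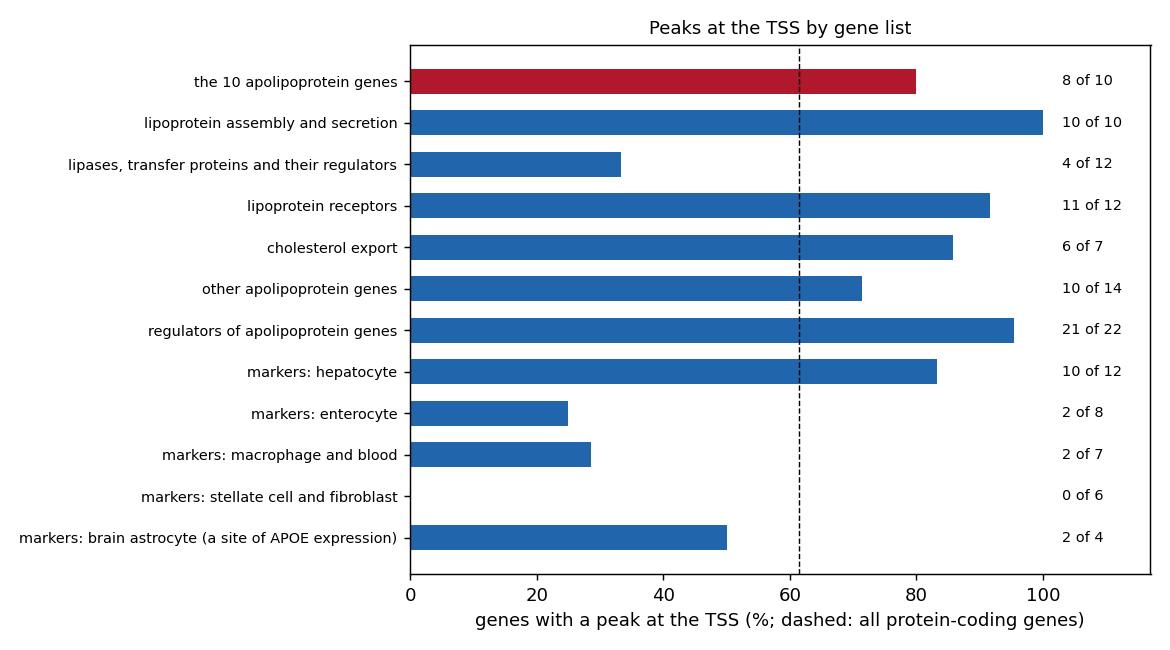
Share of genes with a peak at the TSS (horizontal axis, percent) for the 10 apolipoprotein genes (red) and for related gene lists and cell type markers (blue), with the counts at the right. The dashed line is the 61.5% of all protein-coding genes, and the shares run between 0 of 6 for stellate cells and fibroblasts and 10 of 10 for assembly and secretion.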

How the data were processed

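Reads of HepG2 bulk ATAC-seq were processed by the authors with cutadapt, Bowtie2 (GRCh38) and samtools duplicate removal in snakePipes, and peaks were then called with MACS2. The sample records also list bcl2fastq and deepTools 3.5.5. The MACS2 version, the sequencing depth and any Tn5 shift of read ends are not given in the sources used here. The peak names point to an alignment filtered for short fragments. The deposited score of a peak is its -log10 q multiplied and rounded down. The deposited ratio is the fold enrichment at the summit. Both significance columns, deposited as -log10 p and as -log10 q, belong to the summit, whose position is given beside them.

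No peak ended past the hg38 sequence that holds it. Genes and canonical TSS came from GENCODE 44, and 60474 peaks on chromosomes 1-22, X and Y were used. A TSS peak overlapped the 1000 bp to either side. Summit fragments n and background were solved from the fold, (n + 1)/(background + 1), and the Poisson p, and gave a whole number within 0.01 for 99.99% of all peaks and for each of the 37. The lowest background, 0.176, was shared by 10.6% of peaks. Motifs were matched as exact letters, and GC content at a TSS was that of the 500 bp on each side. Copies were found with blastn 2.17.0 (at least 80% identity over at least 50 bp, or 500 bp between stretches of the cluster). Between stretches of the cluster, only forward-strand copies at spacings around that of the paired peaks were kept. The fragment solution and the TSS overlap were tested on simulated data. Fragments, ratios of fragments and densities carry exact intervals at a 95% level. Named genes were the 10 apolipoprotein genes, other genes with a TSS at an assigned peak, the 4 highest TSS folds of each list and members without a TSS peak where at most 5 lacked one. Some genes that this rule names are not reported here. Members and lists were chosen with earlier results of these data known. Alternatives were other distances, TSS definitions, q thresholds, motif windows and overlap in place of the summit. Work was done in Python 3.11.15 with scipy 1.17.1, pandas 2.3.3 and numpy 2.4.6, plots with matplotlib 3.10.9 and sequence access with samtools 1.23.1.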

Additional observations from a re-analysis of the deposited data

How the results depend on the processing

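The 8 of 10 apolipoprotein genes with a TSS peak, and APOA4 and APOC4 as the genes without one, stood under every definition of a TSS peak that was tried. The share of protein-coding genes moved to 59.2% with 500 bp to either side, 65.6% with 2500 bp, 66.9% with the start of any annotated transcript and 58.2% at a -log10 q of at least 10. Peak counts depended on the distance. APOA2 had 4 peaks within 10 kb, 11 within 50 kb and 4 once peaks at the TSS of other genes were left out. APOB had 11 peaks within 50 kb. No paired analysis was possible because 1 library was analysed. Motif counts rest on few matches, and 8 of 23 recomputed counts changed by more than 1.5 times, 1 of them, with other letters, after the sequences had been seen. Summits held 16 to 90 fragments, which limits how small a difference between peaks can be seen.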
